A study of Mus musculus with 7 samples.

Results

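The complement genes C2, C3, C4b, Cfb, C1ra, C1rl, Serping1, Cd55 and Cd59a were described in irradiated B16 tumours. They were taken by symbol, and all 9 were found among the 56953 genes counted. B16 is a mouse melanoma line. The cells had been sorted alive from tumours 5 days after treatment, as negative for CD45, which marks leukocytes, and for CD31, which marks endothelium. In the AAV-iIL12 group (n = 3), mice had received radiotherapy at 8 Gy and AAV-iIL12, an adeno-associated virus vector named for interleukin 12. In the AAV-iLuc group (n = 4), mice had received the same radiotherapy and the control vector AAV-iLuc. Radiotherapy was thus shared by both groups, and unirradiated tumours were not analysed here. The titles of the AAV-iIL12 libraries carry the tag WT, which the labels do not explain. Strain and age of the mice are not given in the sources used here.

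Complement is a cascade of proteases that tags surfaces and can end in a membrane pore. The classical route starts with C1q and its proteases C1r and C1s, which cleave C4 and C2 to build a convertase. That convertase cleaves C3, and the alternative route amplifies the step with factor B. Inhibitors act at each stage: the serpin of Serping1 blocks C1r and C1s, Cd55 speeds the decay of convertases, and Cd59a stops pore assembly. The liver makes most of the circulating components, while tumour cells, fibroblasts and macrophages can make some of their own, and interferon gamma is a known inducer of several of these genes.

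Promoter windows from RefSeq (GRCm38.p6) were at hand for 5 of the 9 members, namely C1ra, C1rl, C3, Cd55 and Cd59a. Those of C2, C4b, Cfb and Serping1 were not used here. The neighbours C1ra and C1rl are shown because they lie 1762 bp apart on 1 strand and differed in the size of their change. The sequences are the 250 bases before each start site, at chr6:124512371-124512620 for C1ra and at chr6:124492863-124493112 for C1rl, plus strand. Of the last 2 lines, the first lies at chr6:124512641-124512670, after the start of C1ra, and the second at chr2:104095604-104095633, before the start of Cd59a, both on the plus strand. Their capitals mark a match to a gamma-activated motif (GAS, TTCNNNGAA) and to an IRF-type motif (ISRE, GAAA, NN and GAAA in a row).
C1ra upstream: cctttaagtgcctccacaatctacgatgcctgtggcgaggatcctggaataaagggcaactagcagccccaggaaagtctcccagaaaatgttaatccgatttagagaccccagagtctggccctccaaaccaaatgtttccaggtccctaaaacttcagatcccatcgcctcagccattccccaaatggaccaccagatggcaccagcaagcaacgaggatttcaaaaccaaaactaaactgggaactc
C1rl upstream: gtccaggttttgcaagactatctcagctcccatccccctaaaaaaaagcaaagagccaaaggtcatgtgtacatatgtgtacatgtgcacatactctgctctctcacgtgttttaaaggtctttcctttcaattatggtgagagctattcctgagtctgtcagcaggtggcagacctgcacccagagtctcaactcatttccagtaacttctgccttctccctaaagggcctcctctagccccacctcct
C1ra GAS: gcaaatgcttcaTTCCCTGAAacattcctc
Cd59a ISRE: tgtttttaaaGAAAGGGAAAatcaagagcc

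On both strands of the 300-base windows, which run from 250 before to 50 after the start, C1ra held 1 GAS match, at bases 33 to 41 after its start. Cd59a held 1 ISRE match, at -187 to -178. The windows of C1rl, C3 and Cd55 held 0 matches of either motif. Of 32851 promoter windows in the table, 8.3% held a GAS match and 3.44% an ISRE match, so these letters are common.

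Total counts ranged from 16356653 to 19080587 per library. Levels below are CPM, counts scaled to the library total with TMM factors, or RPKM, which is CPM per kilobase of exon and is used to compare genes. Melanocyte genes marked the cells in all libraries. Summed over 7 genes, they reached 27850 to 28740 CPM in AAV-iIL12 and 22840 to 25990 CPM in AAV-iLuc. Of the 7, 3 were higher with AAV-iIL12 and 0 lower, beside 23.5% and 23.7% of all tested genes. The leukocyte list of 8 genes summed to 42.6 to 46.4 CPM and to 28.8 to 51.2 CPM, most of it from Lcp1. Without Lcp1 it summed to 11.7, 8.80 and 5.49 CPM in AAV-iIL12 and to 11.7, 2.52, 1.91 and 3.45 CPM in AAV-iLuc, so that AAV-iLuc replicate 1 stood above its group. Ptprc, which encodes CD45, averaged 1.91 ± 0.76 and 0.770 ± 1.13 CPM. The endothelial markers Cdh5, Emcn and Cldn5 and the keratinocyte markers Krt5, Krt15 and Trp63 had 0 counts in all 7 libraries. The other endothelial markers, Pecam1 (which encodes CD31), Tek and Kdr, averaged at most 0.159 CPM in either group. Of the other keratinocyte markers, Krt14 had 1 count in AAV-iIL12 and 0 in AAV-iLuc. Dsp was higher with AAV-iIL12, at 6.20 ± 1.54 CPM beside 2.24 ± 0.36 CPM in AAV-iLuc (log2 fold change 1.465, edgeR adjusted p = 2.85e-04). AAV-iLuc replicate 1 also stood apart in interferon gamma response genes: Irf1, a transcription factor, was at 121 CPM there and at 16.8 to 24.5 CPM in replicates 2 to 4.

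The members stood at very different levels, and most were higher with AAV-iIL12. Of the 9, 8 passed the filter on low counts and Cd55 did not. Among those 8, 7 were higher in AAV-iIL12, 0 were lower and C3 did not pass (edgeR, adjusted p below 0.05), and all 8 fold changes were positive. Of all 13990 tested genes 47.2% were called in either direction, 23.5% higher and 23.7% lower. In CPM, the groups did not overlap for 7 of the 8, against 52.5% of all tested genes. The median log2 fold change of the 8 was 1.95, beside -0.0053 over all tested genes. C1ra, C4b and Serping1 rose by more than 3 on the log2 scale, where 1.46% of tested genes were called higher by at least that much. In bulk counts, fewer cells of a type and less RNA per cell cannot be told apart.

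**Figure D1:**
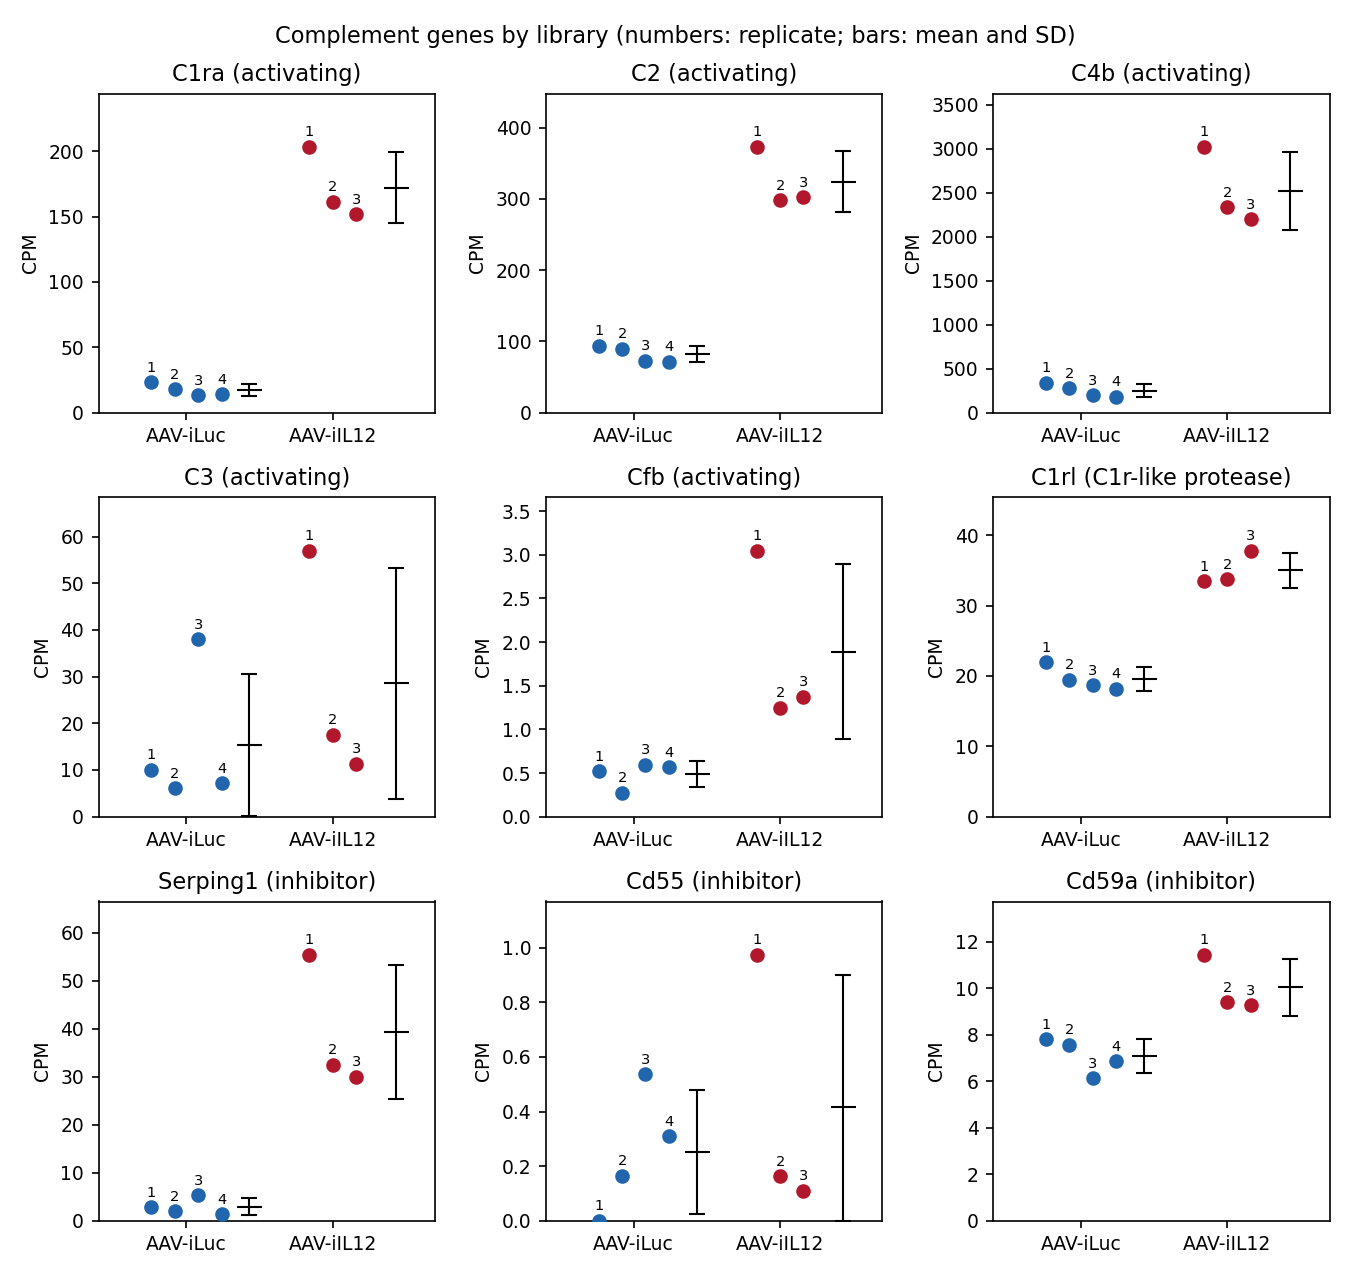
Level of each of the 9 members in every library, in CPM scaled by TMM. Points are libraries with their replicate number, and bars beside them give mean and SD, cut at 0. The groups do not overlap for C1ra, C2, C4b, Cfb, C1rl, Serping1 and Cd59a, while C3 and Cd55 overlap, with AAV-iIL12 replicate 1 and AAV-iLuc replicate 3 highest.

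C1ra encodes the protease C1r, which activates C1s within the C1 complex (ENSMUSG00000055172, chromosome 6, 124489364 to 124500402, GRCm39). It stood at 203, 161 and 152 CPM in AAV-iIL12 replicates 1, 2 and 3, and at 23.4, 17.9, 13.4 and 14.2 CPM in AAV-iLuc replicates 1 to 4. Every AAV-iIL12 library was thus far above every AAV-iLuc library. The log2 fold change was 3.32 ± 0.17 (SE; edgeR adjusted p = 1.19e-06). Of the 100-base stretches in its transcripts (GENCODE vM21), 36.0% also occur in transcripts of other genes, nearly all of them in the copy C1rb. C1rb itself had 4 counts in AAV-iIL12 and 1 in AAV-iLuc, and fragments that fit both copies may be missing from C1ra.

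C1rl, a C1r-like protease next to C1ra (ENSMUSG00000038527, chromosome 6, 124470072 to 124487602), changed much less. It stood at 33.4, 33.7 and 37.8 CPM in AAV-iIL12 and at 21.9, 19.5, 18.7 and 18.2 CPM in AAV-iLuc. The groups did not overlap, and the log2 fold change was 0.84 ± 0.08 (edgeR adjusted p = 3.54e-05). C1rl was also the only member whose highest AAV-iIL12 library was not replicate 1. C1s1, which encodes the C1s protease and lies 6902 bp from C1ra on the opposite strand, rose from 7.27 ± 1.21 to 19.7 ± 3.72 CPM (log2 fold change 1.44, edgeR adjusted p = 5.33e-05).

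C4b encodes complement C4, whose larger fragment binds covalently to surfaces and holds the classical convertase (ENSMUSG00000073418, chromosome 17, 34947354 to 34962856). It stood at 3025, 2336 and 2202 CPM in AAV-iIL12 and at 343, 276, 200 and 182 CPM in AAV-iLuc. Per whole exonic length, C4b was the most abundant member in every library. The lowest AAV-iIL12 library was several times above the highest AAV-iLuc library. The log2 fold change was 3.33 ± 0.21 (edgeR adjusted p = 3.01e-06). The copy C4a, 65213 bp away, is transcribed on the same strand and shares 15.2% of the 100-base stretches of C4b. C4a stood at 3.82 ± 0.84 CPM (n = 3) against 2.21 ± 0.34 CPM (n = 4) and rose by 0.78 on the log2 scale (edgeR adjusted p = 0.0103). Both values are uncertain to the extent that fragments fit both copies.

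C2 encodes the protease subunit of the classical convertase (ENSMUSG00000024371, chromosome 17, 35081580 to 35117241). It stood at 373, 298 and 302 CPM in AAV-iIL12 and at 94.2, 89.6, 73.1 and 71.5 CPM in AAV-iLuc. The groups were far apart and each was tight, with a log2 fold change of 1.98 ± 0.12 (edgeR adjusted p = 2.05e-06). Cfb encodes factor B, the corresponding protease of the alternative route, and starts 86 bp after the end of C2 (ENSMUSG00000090231, chromosome 17, 35075350 to 35081494). It stood at 3.05, 1.25 and 1.37 CPM in AAV-iIL12 and at 0.520, 0.274, 0.596 and 0.567 CPM in AAV-iLuc, from 98 and 36 counts. Cfb rose by a similar amount from a far lower level, with a log2 fold change of 1.92 ± 0.40 (edgeR adjusted p = 0.00310). Without AAV-iIL12 replicate 1, the highest library, it was 1.42 (edgeR adjusted p = 0.0110).

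The level of Cfb in these files is bounded by how fragments were assigned. In the coordinates of the files, the predicted gene Gm20547 is annotated on the same strand over exons of C2 and Cfb. It covers 79.5% of the 2825 exonic bases of Cfb and 42.8% of the 3872 exonic bases of C2. The counting command sets no option for fragments that overlap more than 1 gene, and featureCounts then leaves them unassigned. Gm20547 itself had 0 counts in all 7 libraries. All of its 3902 exonic bases lie on exons of C2 or Cfb, so this 0 was fixed by the counting. It does not measure the level of Gm20547. Per kilobase of exon that no other gene covers, C2 averaged 146 RPKM with AAV-iIL12 and 37.0 RPKM with AAV-iLuc, and Cfb to 3.26 and 0.845 RPKM. Over their whole exonic length the same means were 83.8 and 21.2 RPKM for C2 and 0.669 and 0.173 RPKM for Cfb. The lengths thus move the level of Cfb far more than that of C2, while Cfb stayed below C2 with either length.

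**Figure D2:**
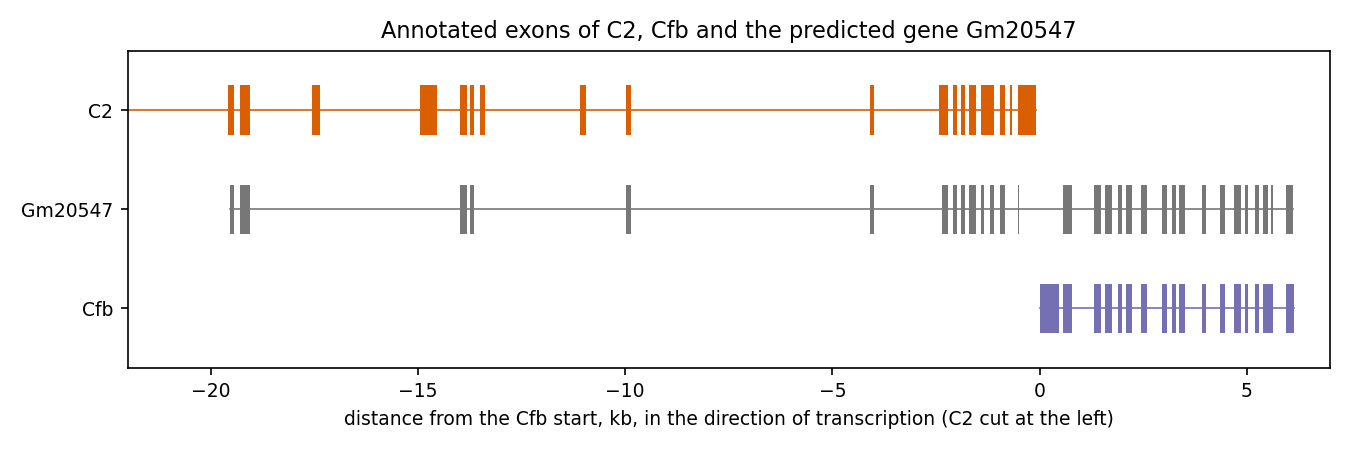
Exons of C2, Gm20547 and Cfb as annotated in the count files, by distance from the Cfb start in kilobases along the direction of transcription. Boxes are exons, and C2 is cut at the left. The Gm20547 boxes lie over boxes of C2 on the left and of Cfb on the right, where 42.8% and 79.5% of exonic bases are shared.

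C3 encodes the central component on which all routes converge (ENSMUSG00000024164, chromosome 17, 57510970 to 57535136). It stood at 57.0, 17.5 and 11.3 CPM in AAV-iIL12 and at 10.04, 6.14, 38.1 and 7.16 CPM in AAV-iLuc. AAV-iIL12 replicate 1 and AAV-iLuc replicate 3 were far above the other libraries, and the groups overlapped. The log2 fold change was 0.91 ± 0.67 and did not pass (edgeR adjusted p = 0.297). It was -0.063 without AAV-iIL12 replicate 1 (edgeR adjusted p = 0.951) and 1.87 without AAV-iLuc replicate 3, where it passed (edgeR adjusted p = 0.0245). C3 also stood far below C4b per length, at 5.56 ± 4.81 RPKM against 443 ± 77.5 RPKM in AAV-iIL12 and 2.99 ± 2.96 RPKM against 43.9 ± 13.0 RPKM in AAV-iLuc.

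Some fibroblast genes were also highest in the libraries where C3 was high. Dcn, the fibroblast proteoglycan decorin, stood at 12.9, 4.18 and 3.85 CPM in AAV-iIL12 and at 3.59, 2.80, 8.16 and 3.56 CPM in AAV-iLuc. These values put the 7 libraries in the same order as C3 did, which held for 1 of the 10 fibroblast genes looked at, and Dcn is singled out after its values were seen. Dcn, Col1a2 and Col3a1, 3 of the 10, had the same 2 highest libraries as C3, and the other 7 did not. Summed over the 10 genes, the fibroblast list came to 235, 172 and 128 CPM in AAV-iIL12 and to 146, 140, 360 and 206 CPM in AAV-iLuc. In that list 9 genes passed the filter and 1 was called, Pdpn, which was higher with AAV-iIL12. Of all tested genes 47.2% were called in either direction. The macrophage list without C1q genes summed to between 6.65 and 10.97 CPM in AAV-iIL12 and to between 1.65 and 15.1 CPM in AAV-iLuc, with its highest value in replicate 1 and not in replicate 3. The part of other cells in the C3 values was not tested.

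**Figure D3:**
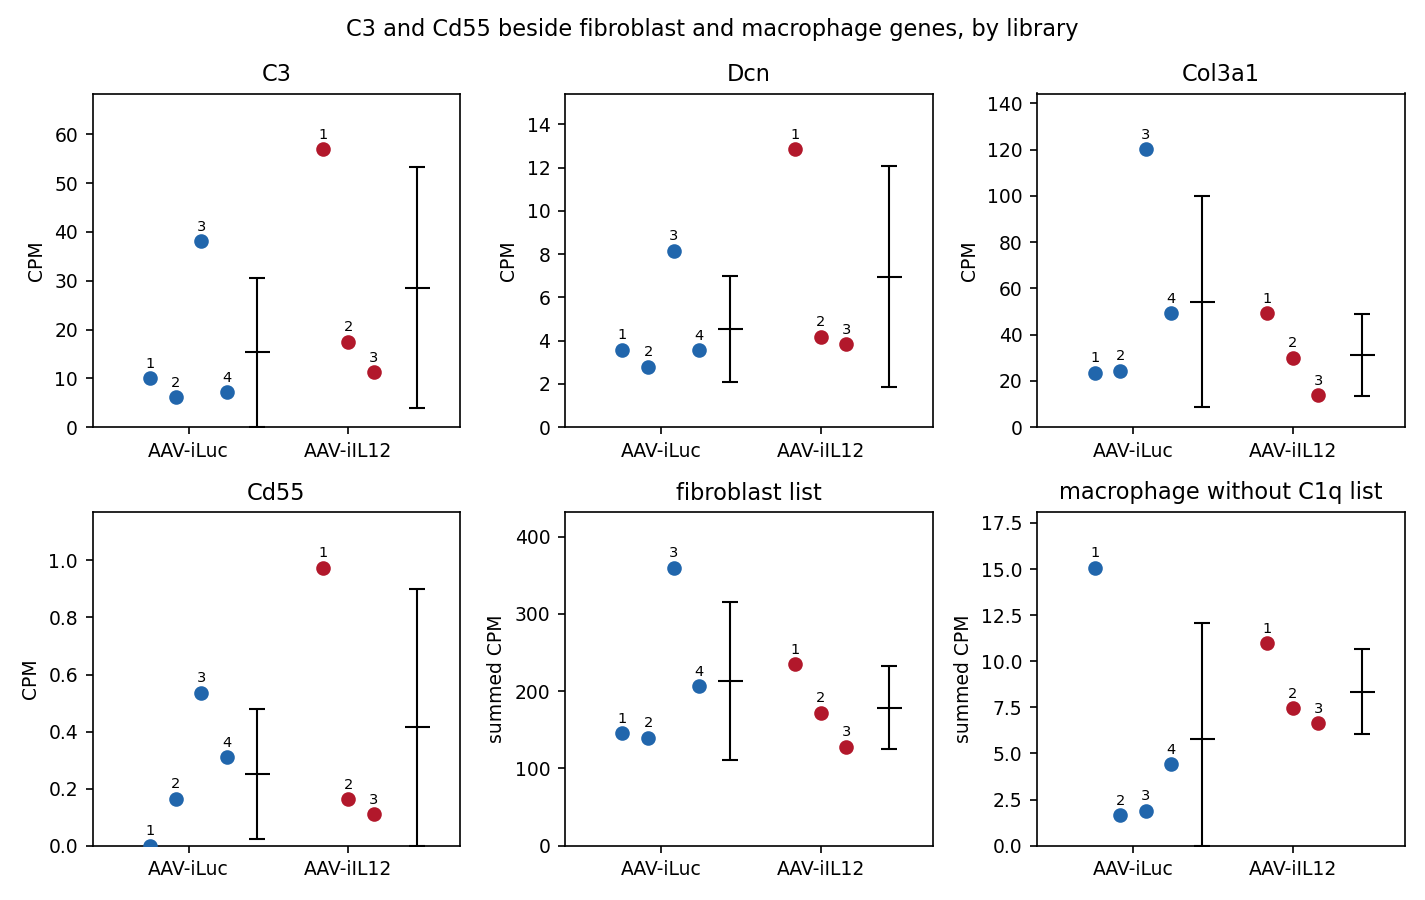
C3 and Cd55 beside the fibroblast genes Dcn and Col3a1 (CPM) and the fibroblast and macrophage lists (summed CPM), by library. Points are libraries with their replicate number, and bars beside them give mean and SD, cut at 0. C3, Dcn and Cd55 share their highest libraries, AAV-iIL12 replicate 1 and AAV-iLuc replicate 3, whereas the macrophage list is highest in AAV-iLuc replicate 1.

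Among the inhibitors, Serping1 had the largest change of all members. It encodes the C1 inhibitor, a serpin (ENSMUSG00000023224, chromosome 2, 84595731 to 84605788). It stood at 55.4, 32.5 and 30 CPM in AAV-iIL12 and at 2.81, 2.03, 5.36 and 1.34 CPM in AAV-iLuc. The lowest AAV-iIL12 library was well above AAV-iLuc replicate 3, the highest of its group. The log2 fold change was 3.79 ± 0.35 (edgeR adjusted p = 2.01e-05). It ranged from 3.47 without AAV-iIL12 replicate 1 to 4.25 without AAV-iLuc replicate 3, the libraries with the most C3, and the call held in both cases.

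The membrane inhibitors moved little or could not be measured. Cd59a, which encodes the inhibitor of the membrane pore (ENSMUSG00000032679, chromosome 2, 103926146 to 103945699), stood at 11.5, 9.40 and 9.28 CPM in AAV-iIL12 and at 7.80, 7.57, 6.13 and 6.86 CPM in AAV-iLuc. The groups did not overlap, but the step between them was small, with a log2 fold change of 0.50 ± 0.13 (edgeR adjusted p = 0.00857). Cd55, the decay-accelerating factor (ENSMUSG00000026399, chromosome 1, 130366764 to 130390481), was close to absent. It had 16, 3 and 2 counts in AAV-iIL12 and 0, 3, 9 and 6 counts in AAV-iLuc, so the groups overlapped. For AAV-iLuc replicate 1, a count of 0 allows up to 0.156 CPM (3 counts, counting error only). Without the low-count filter, the log2 fold change of Cd55 was 0.70 ± 0.72 (edgeR adjusted p = 0.547), so no difference was detectable at this depth. Its highest libraries were again AAV-iIL12 replicate 1 and AAV-iLuc replicate 3.

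Per length of exon, the order of the members differed between groups mainly in Serping1 and C1ra. In AAV-iLuc the order of mean levels was C4b at 43.9 RPKM, C2 at 21.2, C1rl at 6.50, C1ra at 5.77, Cd59a at 3.91, C3 at 2.99, Serping1 at 1.24, Cfb at 0.173 and Cd55 at 0.0520 RPKM. The ranges over libraries overlapped for the neighbours C1rl and C1ra, Cd59a and C3, C3 and Serping1, and Cfb and Cd55, and the wide range of C3 also reached those of C1rl and C1ra. In AAV-iIL12 the order was C4b at 443 RPKM, C2 at 83.8, C1ra at 57.8, Serping1 at 16.9, C1rl at 11.6, C3 at 5.56, Cd59a at 5.55, Cfb at 0.669 and Cd55 at 0.0857 RPKM. There only the ranges of C3 and Cd59a overlapped. These orders and overlaps use the whole exonic length. With the uncovered length the order of the means was the same in both groups. C2 then averaged 37.0 RPKM in AAV-iLuc beside 43.9 RPKM for C4b, and their ranges overlapped. The overlaps of Cfb with other members also changed. Serping1 moved from the seventh place to the fourth, and C1ra passed C1rl.

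Activating components were summed against inhibitors in each library, as a description with no test. The activating sum (C1ra, C2, C4b, C3 and Cfb) came to 708, 545 and 518 RPKM in AAV-iIL12 and to 94.5, 78.8, 66.1 and 56.7 RPKM in AAV-iLuc. The inhibitor sum (Serping1, Cd55 and Cd59a) came to 30.4, 19.2 and 18.0 RPKM in AAV-iIL12 and to 5.51, 5.08, 5.80 and 4.42 RPKM in AAV-iLuc. Both sums were higher in every AAV-iIL12 library than in any AAV-iLuc library. Their ratio was 26.8 ± 3.02 (SD, n = 3) in AAV-iIL12 and 14.2 ± 2.59 (n = 4) in AAV-iLuc, and the groups did not overlap. That gap depended on which members were summed. Cd59a, which rose by 0.50 on the log2 scale, made up most of the inhibitor sum in AAV-iLuc. Against Serping1 alone, C4b did not separate the groups (below). C4b held 75.0% of the activating sum in AAV-iIL12 and 58.6% in AAV-iLuc. Without C4b the ratio was 6.71 ± 0.78 against 5.79 ± 0.39, and the groups overlapped. These sums use the whole exonic length, and with the uncovered length the ratios were 29.8 ± 3.43 against 17.4 ± 2.94, and without C4b 9.69 ± 1.199 against 8.98 ± 0.78.

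The makeup of the inhibitor sum also shifted. Serping1 held 74.3% ± 3.74 (SD, n = 3) of it in AAV-iIL12 and 23.0% ± 11.8 (n = 4) in AAV-iLuc, with Cd59a making up nearly all of the remainder. At the level of C1 and its substrates, C4b stood at 22.3, 29.4 and 29.98 times Serping1 per length in AAV-iIL12, and at 49.8, 55.5, 15.2 and 55.3 times in AAV-iLuc. AAV-iLuc replicate 3 thus lay below all other libraries, and the remaining AAV-iLuc libraries lay above the AAV-iIL12 range. Against the pore inhibitor, C2 stood at 14.8 to 15.2 times Cd59a in AAV-iIL12 and at 4.88 to 5.65 times in AAV-iLuc. With the uncovered exonic length of C2, that ratio was 25.9 to 26.6 and 8.53 to 9.87. C2 over Cd59a separated the groups, which restates the log2 fold changes of 1.98 for C2 and 0.50 for Cd59a. The choice of length scales this ratio equally in all libraries, so it could not change the separation. C4b over Serping1 overlapped between the groups.

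The members did not share 1 order of libraries. In AAV-iIL12, replicate 1 was highest for 8 of 9 members. In AAV-iLuc, replicate 1 was highest for C1ra, C2, C4b, C1rl and Cd59a, and replicate 3 for C3, Cfb, Serping1 and Cd55. For Cfb and Cd55 the highest AAV-iLuc library is uncertain. Replicates 1 to 4 had 10, 5, 10 and 11 counts of Cfb and 0, 3, 9 and 6 counts of Cd55. AAV-iLuc replicate 1 is the library that stood apart in interferon gamma response genes. Irf1 rose by 4.27 and Nlrc5, the transactivator of class I MHC genes, by 3.72 on the log2 scale (edgeR adjusted p = 3.13e-04 and 8.31e-05), and by 5.38 and 4.36 without AAV-iLuc replicate 1. Without that library, C4b rose by 3.53 and C1ra by 3.51, so the members depended on it less.

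Of 10111 genes compared, H2-K1, H2-Q4 and Isg15 had the pattern closest to C4b over the 7 libraries. H2-K1 and H2-Q4 encode class I MHC heavy chains, and Isg15 a ubiquitin-like protein. The root mean square difference of their centred log2 CPM was 0.077, 0.11 and 0.12, and they rose by 3.20, 3.15 and 3.40 on the log2 scale. Closest to Serping1 were Socs1, Trim12a and Cxcl10, with larger differences of 0.41, 0.51 and 0.52 and rises of 4.03, 3.89 and 4.02. Serping1 thus had no neighbour as close as those of C4b, but it had far fewer counts in AAV-iLuc, 207 against 18502. The part of counting noise in its larger differences was not tested. Likeness here is a description over libraries that fall into 2 groups.

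The wider pathway was examined in a list of 61 complement genes, 23 of which passed the filter. In edgeR, 13 were higher in AAV-iIL12, 2 were lower and 8 did not pass. Outside the 9 members, 15 were tested: 6 were higher, 2 lower and 7 did not pass, with a median log2 fold change of 0.54. Of all 13990 tested genes, 47.2% were called, 23.5% higher and 23.7% lower, with a median of -0.0053. With so few genes these counts are a description only. Among the other initiators, 2 of 5 were higher: C1s1 (above) and C1qb, a chain of C1q, which rose from 0.432 ± 0.538 to 2.52 ± 1.77 CPM (edgeR adjusted p = 0.0208). C1qa and C1qc stood at 1.44 ± 1.46 and 1.73 ± 1.26 CPM against 0.272 ± 0.332 and 0.594 ± 0.652 CPM and did not pass (edgeR adjusted p = 0.0645 and 0.101), nor did the collectin Colec12 (1.10 ± 0.67 beside 0.460 ± 0.149 CPM, edgeR adjusted p = 0.0609). The C1q genes are macrophage markers, and their values were highest in AAV-iIL12 replicate 1. C1qb was no longer called with AAV-iIL12 replicate 1 left out (log2 fold change 1.75, edgeR adjusted p = 0.104), with AAV-iLuc replicate 3 left out (edgeR adjusted p = 0.0527) or in DESeq2 (adjusted p = 0.0888). With AAV-iLuc replicate 1 left out its log2 fold change was 3.73 instead of 2.48.

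In the terminal pathway, 1 of 7 genes was measurable. C8g, which encodes a chain of the pore component C8, rose from 1.77 ± 0.18 to 3.31 ± 0.95 CPM (log2 fold change 0.90, edgeR adjusted p = 0.00782). The others, among them Hc (C5), C6, C7 and C9, had at most 3 counts in any library. Properdin (Cfp), which stabilises the alternative convertase, averaged 5.05 ± 1.47 CPM beside 3.89 ± 0.62 CPM, which was no call (edgeR adjusted p = 0.185).

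Among the other fluid-phase inhibitors, Cfi, which encodes the protease factor I, fell from 3.49 ± 1.39 to 1.702 ± 0.38 CPM (log2 fold change -1.04, edgeR adjusted p = 0.0289). Its groups overlapped, and the call was lost with any 1 of the AAV-iIL12 libraries and AAV-iLuc replicates 1 and 2 left out, and in limma-voom (adjusted p = 0.0510 to 0.112). Clusterin (Clu), which binds the assembling pore, averaged 2.65 ± 1.19 CPM beside 3.98 ± 1.08 CPM and was not called (edgeR adjusted p = 0.133). With AAV-iIL12 replicate 1 left out it was called (log2 fold change -1.01, edgeR adjusted p = 0.0170).

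The other 2 membrane inhibitors that were measurable rose by less than C1ra, C4b or Serping1. Cr1l, which encodes Crry, a rodent regulator of C3 convertases, stood near Cd59a per length, at 4.14 ± 0.43 RPKM in AAV-iIL12 and 3.52 ± 0.07 RPKM in AAV-iLuc. It rose from 36.5 ± 0.75 to 42.8 ± 4.41 CPM (log2 fold change 0.23, edgeR adjusted p = 0.0256). It was no longer called with library size only, upper quartile scaling or the replicate block, nor with any 1 of AAV-iIL12 replicate 1, AAV-iLuc replicate 1 and AAV-iLuc replicate 4 left out (edgeR adjusted p = 0.0511 to 0.140). Cd46 rose from 2.11 ± 0.19 to 3.06 ± 0.49 CPM (edgeR adjusted p = 0.0369), a call lost with any 1 of AAV-iIL12 replicates 2 and 3 and AAV-iLuc replicates 1, 2 and 4 left out, and under 5 other settings (adjusted p = 0.0559 to 0.166). Of the receptors, C1qbp, a mitochondrial protein that binds C1q, fell from 130 ± 5.93 to 109 ± 4.03 CPM (edgeR adjusted p = 0.00297). Itgb2, the shared chain of the complement receptors CR3 and CR4, averaged 10.99 ± 0.84 CPM beside 8.79 ± 2.15 CPM, which was no call (edgeR adjusted p = 0.152). It passed without AAV-iLuc replicate 1 (log2 fold change 0.49, edgeR adjusted p = 0.0180).

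**Figure D4:**
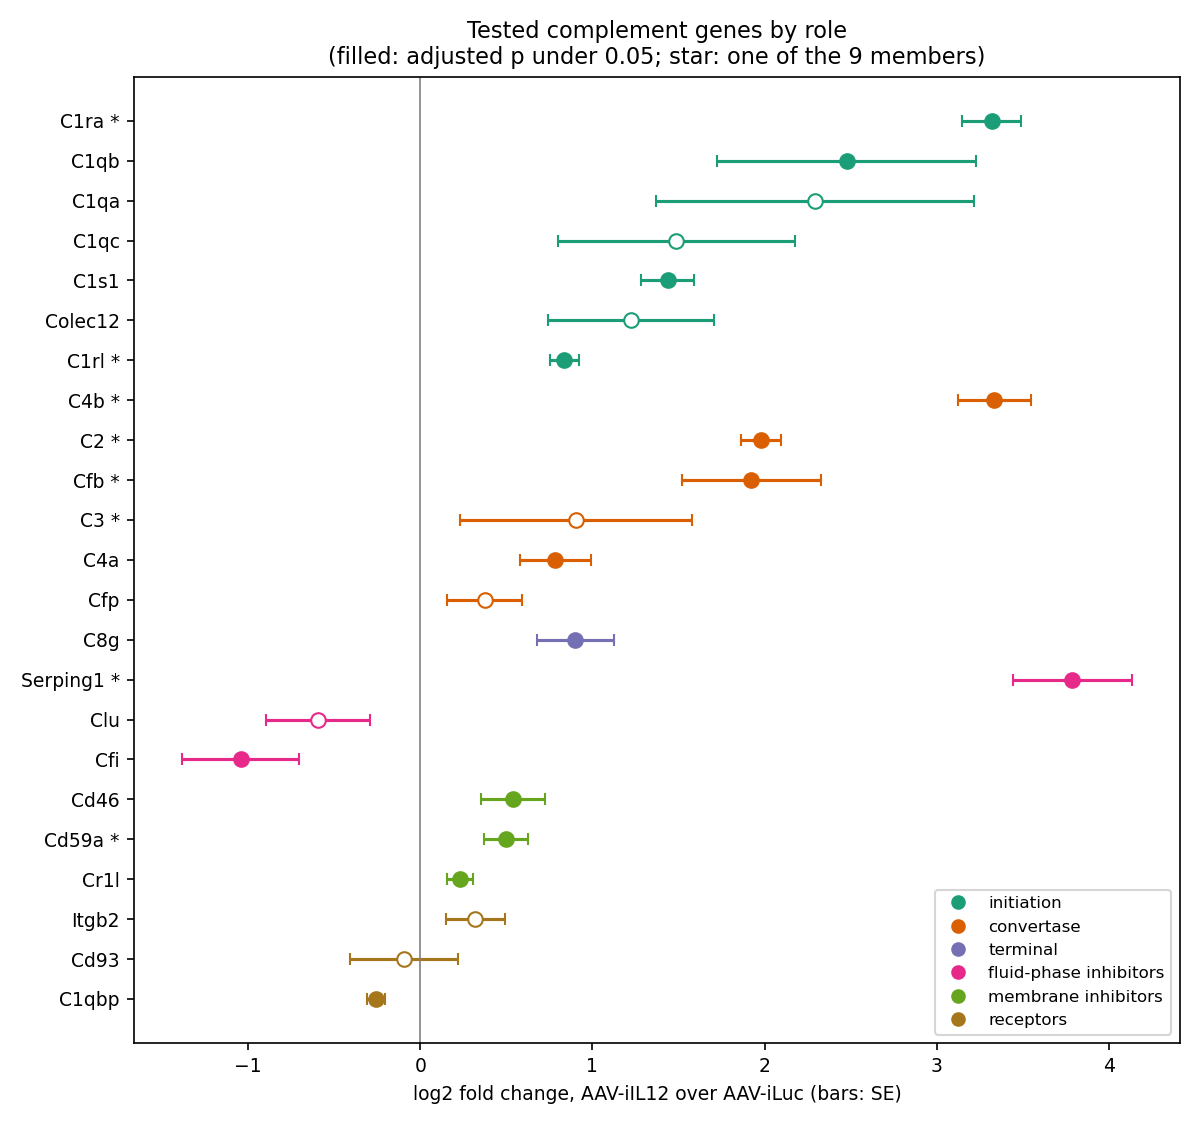
Log2 fold change (AAV-iIL12 over AAV-iLuc) with SE for the 23 tested genes of the complement list, coloured by role. Filled points passed the edgeR test, and stars mark the 8 tested members. Serping1, C4b and C1ra lie farthest to the right, and Cfi and C1qbp are the filled points left of 0.

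Within 100 kb of a member lie 91 other genes, of which 40 were tested, 12 were higher (30%) and 10 lower (25%), beside 23.5% and 23.7% of all tested genes, so the neighbours were close to the background. Nelfe, a transcription elongation factor gene that ends 2 bp from Cfb on the opposite strand, fell from 34.9 ± 3.67 to 19.9 ± 1.39 CPM (log2 fold change -0.81, edgeR adjusted p = 8.98e-05), while Cfb rose. Ube2l6, the conjugating enzyme for ISG15, lies 23384 bp from Serping1 and rose from 18.7 ± 9.86 to 233 ± 7.05 CPM (log2 fold change 3.64, edgeR adjusted p = 1.06e-05). The pseudogene Cyp21a2-ps starts 6128 bp after the end of C4b on the same strand. It rose from 0.0553 ± 0.0449 to 2.01 ± 1.12 CPM (log2 fold change 5.03 ± 0.63, edgeR adjusted p = 1.37e-04), from very few counts in AAV-iLuc.

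**Figure D5:**
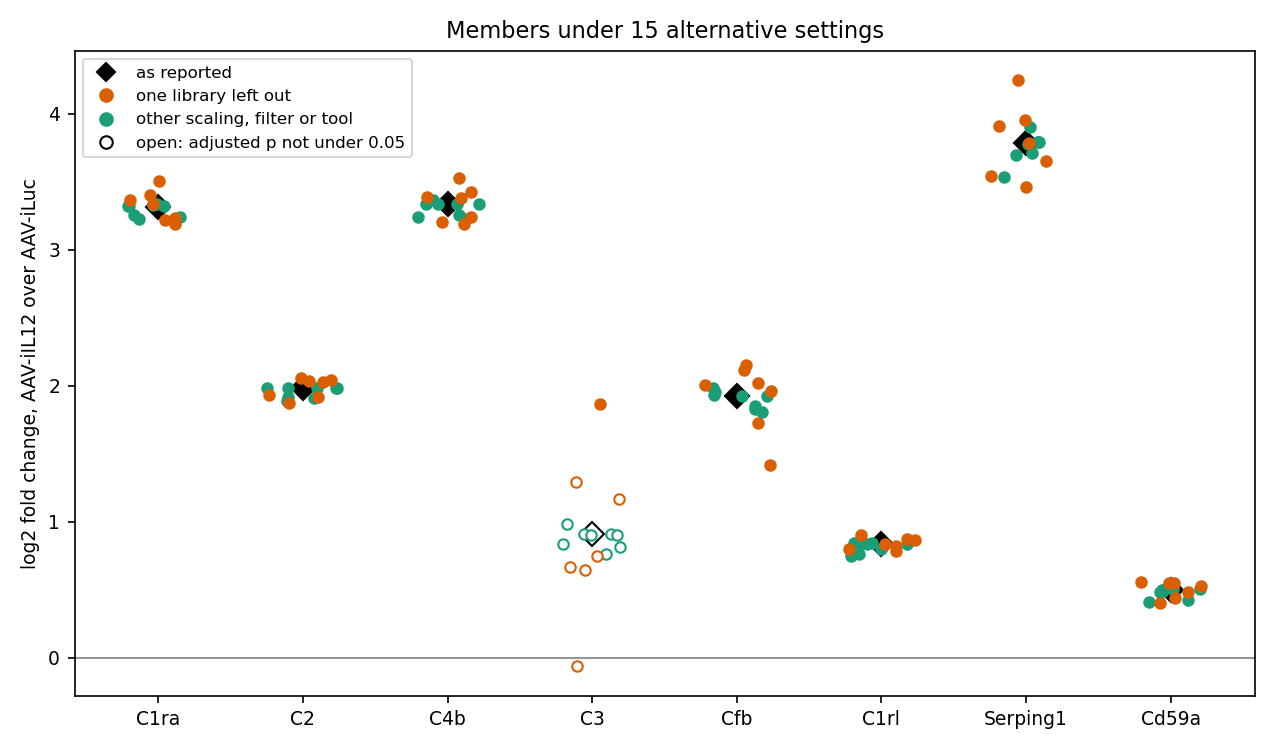
Log2 fold change of the 8 tested members as reported (black diamonds) and under 15 alternatives, with 1 library left out (orange) or another scaling, filter, tool or block (green). Open points did not pass the test. All members but C3 stay filled, and C3 ranges from -0.063 to 1.87.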

How the data were processed

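Poly(A) RNA of 7 libraries was sequenced with a strand-keeping kit, per the labels' protocols. The authors deposited raw counts of fragments for each gene. They were made, per the file headers, with featureCounts 1.6.0 over exons grouped by gene, reverse-stranded and paired-end, on the GENCODE vM32 annotation, with no option for multi-mapping or multi-gene fragments. The submitters' processing notes also list STAR 2.7.9a, FastQC 0.11.8, limma, edgeR and the build GRCm39. Symbols were matched by identifier for 52029 of 56953 genes, which held 99.4% of counts.

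The 2 groups were tested in R 4.3.3 with edgeR 4.0.16 (TMM, filterByExpr, quasi-likelihood F test, Benjamini-Hochberg adjustment over all 13990 tested genes, threshold 0.05). SEs came from the F statistic. CPM was scaled by TMM, and RPKM used the exonic length in the files. The test was also run on simulated counts, with few changed genes, balanced in direction, and the same dispersion for all genes. That setting is unlike these data, so it does not vouch for the calls here. Within groups, all pairs of libraries differed beyond the noise of sampling. The design text gives the numbers of libraries as numbers of mice, and no batch is labelled. Members, gene lists and the rule for named genes (all members, complement genes past the threshold, the 2 most abundant per role, neighbours within 100 kb and the 3 genes most alike to C4b and Serping1) were chosen with earlier results of these data known. Alternatives were median-of-ratios factors, library size only, upper quartile, no filter, 1 CPM in 3 libraries, DESeq2 1.42.0, limma-voom (limma 3.58.1), the replicate number as a block, and each library left out. The uncovered exonic length, the sum without C4b and the leukocyte list without Lcp1 were added after the data were seen. The ratios of single members, C4b over Serping1 and C2 over Cd59a, were not planned measures.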

Additional observations from a re-analysis of the deposited data

Results flagged for a closer look

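C3 in AAV-iLuc replicate 3 stood at 38.1 CPM, while the next highest library of its group was at 10.04 CPM. The gap was 0.878 of the range of the 4 libraries, above the limit of 0.829 for groups of this size. The fibroblast list was also highest in that library, at 360 CPM against 206 CPM in the next of its group, and its part in the C3 value was not tested. The leukocyte list without Lcp1 summed to 11.7 CPM in AAV-iLuc replicate 1, while the next library of its group was at 3.45 CPM, a gap of 0.842 of the range. This sum was added after the data were seen. These were 2 of 20 groups of 4 looked at, and chance alone gives about 1 in 20.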

How the results depend on the processing

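All 7 called members kept their direction and their call under all 15 alternatives, and the count of members called was 7 in each, except 8 without AAV-iLuc replicate 3, where C3 was added with a log2 fold change of 1.87. C3 reversed to -0.063 without AAV-iIL12 replicate 1, and the cause was not tested. Leaving out 1 library in turn gave 13 to 15 calls in the complement list against 15, 16 to 21 neighbours against 22, and 5672 to 6295 genes in all against 6608. The ratio of activating to inhibitor sums then ranged from 25.9 to 28.6 in AAV-iIL12 and from 13.2 to 15.2 in AAV-iLuc. Without C4b in the sum it was 6.71 and 5.79, and with uncovered exonic lengths 29.8 and 17.4. With library size only, 36.0% of all calls were higher, and with upper quartile scaling 38.5%, against 49.8%, and the complement list went from 13 higher to 11, with 2 lower in each. Deviations from the group mean were hardly correlated between same-numbered libraries (0.088, 0.034 and -0.049 for replicates 1, 2 and 3). No pairing by number was seen, but so few libraries cannot exclude it. With the replicate block, 7 members, 15 complement genes and 5660 genes in all were called, and Cr1l and Cd46 lost their calls. Few counts limited Cd55 (21 and 18) and Cfb (98 and 36), and for Cfb the exons shared with Gm20547 also limit what was counted.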
